A study of Homo sapiens with 6 samples.

Results

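The genes described are 32 human genes of cell adhesion to the extracellular matrix, 18 integrin chains and 14 proteins of the focal adhesion plaque, taken from a list of symbols out of 28395 gene rows. Each symbol matched 1 row of the count table by its Entrez identifier, and 28 of the 32 had enough counts to be tested. They were measured in TC28a2 cells, an immortalised line of human chondrocytes, 48 hours after transfection. The FAP group held 3 libraries from cells given an FAP overexpression vector, and the control group 3 libraries from cells given a control vector. All came from total RNA and were sequenced by DRUG-seq, in which many barcoded samples share a library preparation. The FAP gene encodes a protease of the cell surface that cuts collagen fragments and is typical of fibroblasts in wounds and tumours. The sources used here do not give the promoter of the vector, the share of cells that took it up or whether replicates were separate cultures. The p-values therefore reflect variation among these libraries only, and that variation may be technical.

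Integrins are transmembrane receptors built from 1 alpha and 1 beta chain, and the alpha chain largely sets which matrix protein is bound. Inside the cell, talin and kindlin bind the beta tail and activate the receptor, a complex of ILK, PINCH and parvin and the protein vinculin link it to actin, and paxillin, p130Cas, FAK and Src carry signals from it. Chondrocytes use such receptors to hold and sense collagen and fibronectin around them.

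Library totals ran from 6275038 to 13839743 counts in the FAP group and from 5736056 to 12446373 in the control group. FAP itself was at 266 ± 73.4 CPM in FAP libraries and 0.532 ± 0.612 CPM in controls (mean ± SD, n = 3 each), with 1396 to 4733 counts in FAP libraries and 0 to 11 in controls, and every library matched its label at this gene. CPM is a gene's count per 1000000 counts of its library, with library sizes scaled by TMM, a correction for composition. The counts of FAP replicate 3 differed from those of FAP replicates 1 and 2 with a chi-square per degree of freedom of 17.5 and 16.7, against 6.06 between replicates 1 and 2. Of 12 chondrocyte markers only SOX9 averaged over 1 CPM, while COL2A1 and ACAN, the cartilage collagen and aggrecan, had at most 4 and 15 counts in any library. Summed chondrocyte markers ranged from 34.7 to 45.1 CPM in FAP libraries and from 26.9 to 36.1 CPM in controls. All 8 mesenchymal markers passed 1 CPM, as did the keratins KRT8 and KRT18, whereas the epithelial genes EPCAM and CDH1 had at most 4 counts each. Summed leukocyte markers ranged from 17.6 to 19.8 CPM in FAP libraries and from 17.6 to 19.6 CPM in controls. Summed endothelial markers ranged from 1.84 to 2.67 CPM in FAP libraries and from 0.913 to 1.09 CPM in controls, with PECAM1 the 1 of 5 over 1 CPM and the endothelial cadherin CDH5 without a count in any library. Summed smooth muscle markers ranged from 7.63 to 10.8 CPM in FAP libraries and from 6.73 to 9.18 CPM in controls. The part of these marker levels in the values of the members was not tested.

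No member passed the test between FAP and control libraries. Of the 28 tested members, 0 were called higher and 0 lower at an adjusted p under 0.05 in edgeR's quasi-likelihood test over all 13373 tested genes, of which 0.224% were called, 0.0972% higher and 0.127% lower. DESeq2 and limma-voom also called 0 members, where they called 0.463% and 0.157% of the genes they fitted. DESeq2 gave no adjusted p for ITGA4, ITGA7, ITGA10, ITGB3 and ITGB8, so it could not call these. At an unadjusted p under 0.05 stood 4 members, 14.3% of those tested, against 9.91% of all tested genes. These were SRC and TNS3, with higher values in FAP libraries (4.61% of all tested genes), and ITGA2 and PXN, with lower values (5.3% of all). The groups did not overlap at 4 members, again 14.3%, against 16% of all tested genes. SRC and TNS3 were above every control in all FAP libraries (7.96% of all tested genes) and ITGA2 and ITGA1 below (7.99%). The median log2 fold change of the tested members was -0.06, against 0.00 over all tested genes, and 12 of the 28 were positive, against 50.7% of all. In a bulk measurement fewer cells with a transcript and less of it per cell cannot be told apart.

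For most members the intervals bound the difference between the group means of these libraries. They rest on the spread among the libraries, which may be technical, and the share of cells that took up the vector is unknown. Among the 23 members with a mean of at least 10 CPM, the 95% interval of the fold change stayed within 1.5-fold of no change in either direction for 20. The exceptions were SRC, with an interval of 1.25 to 2.10, TNS3, with 1.03 to 1.53, and ITGA2, with 0.640 to 0.898. The other 5 tested members, ITGA4, ITGA7, ITGA10, ITGB3 and ITGB8, had standard errors of 0.23 to 0.60 on the log2 scale and gave wide intervals.

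**Figure D1:**
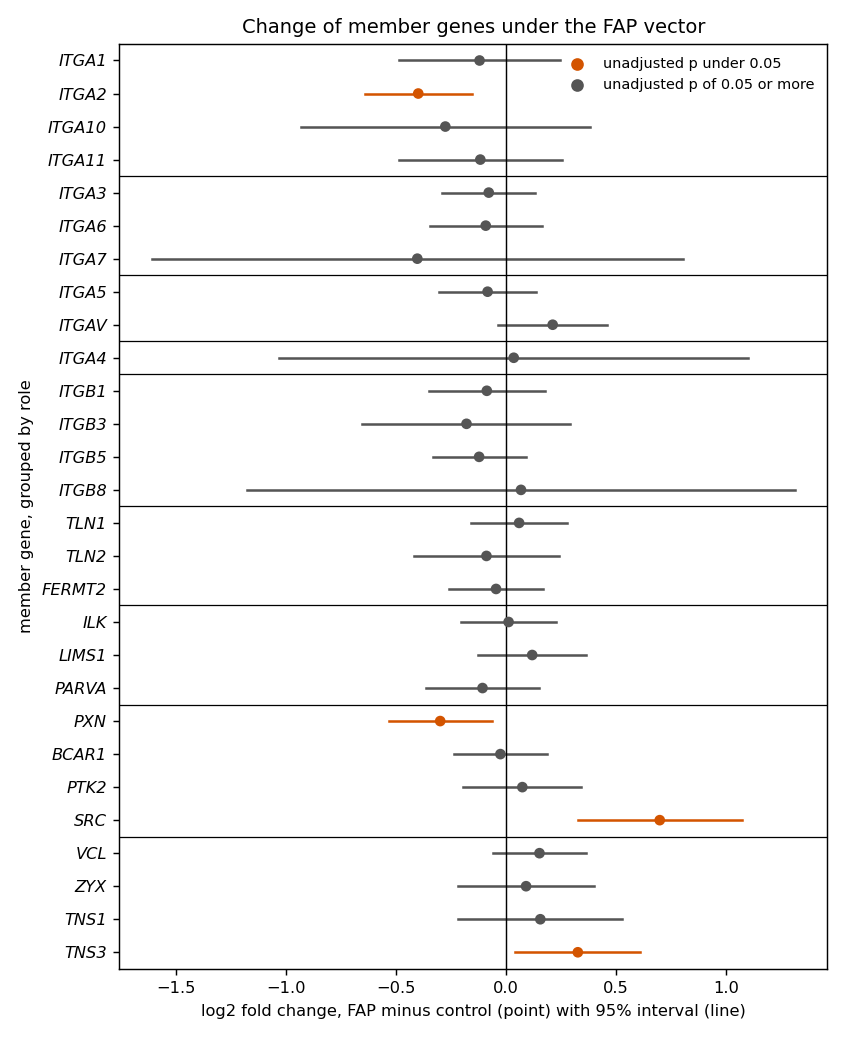
Log2 fold change of FAP minus control for the 28 tested members (points) with 95% intervals (lines), in rows grouped by role, with members at an unadjusted p under 0.05 in orange. SRC lies farthest right at 0.70, and the intervals of ITGA4, ITGA7 and ITGB8, all below a mean of 1.5 CPM, are the widest.

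The tyrosine kinase SRC, which phosphorylates paxillin and p130Cas at adhesions, had the smallest p of the members. It lies on chromosome 20 (37344699 to 37406050 in GRCh38.p14). SRC had 16.3, 17.9 and 14.4 CPM in FAP replicates 1, 2 and 3 and 11.9, 9.72 and 8.79 CPM in control replicates 1, 2 and 3. Every FAP library was above every control, with 102 to 253 counts in FAP libraries and 65 to 111 in controls. The log2 fold change was 0.70 (SE 0.18), a 1.62-fold difference, and did not pass the test (adjusted p = 0.1385). It passed without FAP replicate 3 (log2 fold change 0.79, adjusted p = 0.0221), where 1.86% of all tested genes were called. With no low-count filter it also passed (0.70, adjusted p = 0.0345), where 0.718% were called. Its adjusted p over 15 alternative settings ranged from 0.0221 to 0.548, and the log2 fold change stayed positive in each.

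PXN encodes paxillin, the scaffold that recruits kinases and vinculin to the plaque (chromosome 12, 120210447 to 120265730). PXN had 107, 124 and 148 CPM in FAP replicates 1, 2 and 3, against 162, 161 and 146 CPM in control replicates 1, 2 and 3. FAP replicates 1 and 2 were below all controls, and FAP replicate 3 lay between the control values. Its log2 fold change, -0.30 (SE 0.11), did not pass (adjusted p = 0.373). Without FAP replicate 3 it was -0.43 and passed (adjusted p = 0.0134), where 1.86% of all tested genes were called. Over all 15 alternatives its adjusted p ranged up to 0.786. BCAR1, which encodes the Src and FAK substrate p130Cas, had 344, 294 and 332 CPM in FAP replicates 1, 2 and 3, against 303, 352 and 330 CPM in control replicates 1, 2 and 3. These overlapped (log2 fold change -0.03, adjusted p = 0.957), with a 95% interval of 0.849 to 1.14 in fold. PTK2, the gene of focal adhesion kinase, had 39.1 to 40.6 CPM in FAP libraries and 32.0 to 45.0 CPM in controls (0.07, adjusted p = 0.886). Of these 4 scaffold and kinase genes, SRC alone separated the groups. The span of PXN overlaps the antisense gene PXN-AS1 (1.57 CPM).

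**Figure D2:**
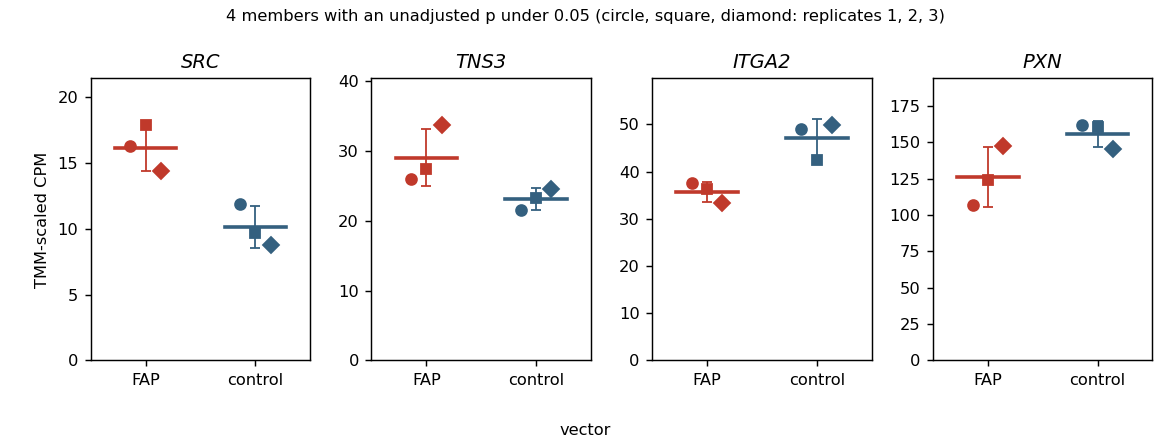
TMM-scaled CPM of SRC, TNS3, ITGA2 and PXN in each library (points, replicates 1 to 3 as circle, square and diamond), FAP left and control right, with the mean (bar) and SD (error bar, n = 3); each axis starts at 0. The groups do not overlap at SRC, TNS3 and ITGA2, while PXN in FAP replicate 3 reaches the controls.

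All 4 alpha chains of the collagen-binding integrins had negative log2 fold changes, and none passed the test. ITGA2, the alpha chain of a collagen receptor by which platelets also adhere (chromosome 5, 52989352 to 53094779), had 37.5, 36.4 and 33.4 CPM in FAP replicates 1, 2 and 3. In control replicates 1, 2 and 3 it had 49.1, 42.4 and 49.8 CPM. Each FAP library was below each control (log2 fold change -0.40, SE 0.12, adjusted p = 0.223). ITGA1, whose product also binds collagen IV of basement membranes, had 11.0, 10.5 and 11.0 CPM in FAP replicates 1, 2 and 3, against 11.3, 12.4 and 11.6 CPM in control replicates 1, 2 and 3. Those ranges did not overlap, but the change was small (-0.12, SE 0.18, adjusted p = 0.860). ITGA11, a receptor chain for fibrillar collagens in mesenchymal cells, was at -0.12 (SE 0.18), and ITGA10, a chain typical of cartilage, at -0.28 (SE 0.32) and a mean of 4.89 CPM in FAP libraries against 5.56 CPM in controls. The 4 values were negative under every alternative that gave them. The span of ITGA1 overlaps the gene PELO (39.0 CPM), and reads of such overlapping genes may be assigned to either.

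The promoters of ITGA2 and PXN are shown because these had the smallest p among members with lower values in FAP libraries. They are RefSeq sequences (GRCh38.p14) of the 250 bases before the annotated start, for ITGA2 (chr5:52989102-52989351, plus strand) and PXN (chr12:120265731-120265980, minus strand), 5′ to 3′, with capitals marking GC boxes, the letters GGGCGG bound by factors of the Sp family, on either strand.
ITGA2: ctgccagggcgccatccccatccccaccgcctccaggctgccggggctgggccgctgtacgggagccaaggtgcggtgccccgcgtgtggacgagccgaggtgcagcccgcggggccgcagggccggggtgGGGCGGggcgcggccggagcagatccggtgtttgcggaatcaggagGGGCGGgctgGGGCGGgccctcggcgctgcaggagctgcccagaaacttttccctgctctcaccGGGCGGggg
PXN: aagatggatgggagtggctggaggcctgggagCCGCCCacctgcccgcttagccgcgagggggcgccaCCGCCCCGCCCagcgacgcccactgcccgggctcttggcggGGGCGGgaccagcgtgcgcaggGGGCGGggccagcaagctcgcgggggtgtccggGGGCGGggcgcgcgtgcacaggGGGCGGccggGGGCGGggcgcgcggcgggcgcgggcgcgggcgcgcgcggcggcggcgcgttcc
ITGA2 held 4 matches and PXN 8, overlapping matches counted separately, in windows of 76.4% and 83.6% G and C. Of the 32 members 24 had an entry, of which 14 held a GC box (58.3%), against 42.3% of all 27305 entries, while the median G and C share was 71.0% in the members and 58.0% over all entries. The AP-1 letters TGANTCA stood in 1 member (4.17%, against 6.60% of all), and the TEAD letters GGAATG, on either strand, in 4 (16.7%, against 11.9%), ITGA5, ITGA10, ITGB1 and VCL. A CArG box, the site of serum response factor, stood in 1 member, ITGB6 (4.17%, against 1.14%). The counts measure RNA and hold no measurement of binding at these windows.

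ITGA3 and ITGA5 had the highest CPM of the alpha chains in each group, with log2 fold changes of -0.08 each that did not pass the test. ITGA3, whose product binds laminins with beta 1, had 359, 381 and 355 CPM in FAP replicates 1, 2 and 3, against 339, 411 and 404 CPM in control replicates 1, 2 and 3. The FAP values fell inside the range of the controls (log2 fold change -0.08, SE 0.10, adjusted p = 0.838). ITGA5, the chain of the fibronectin receptor, had 315, 324 and 342 CPM in FAP libraries, also inside the range of the controls at 294, 384 and 360 CPM (-0.08, SE 0.11, adjusted p = 0.834). Both groups thus overlapped fully at these 2 genes, and the 95% interval of the ITGA5 fold ran from 0.809 to 1.10. ITGA6, the laminin receptor chain that can also pair with beta 4, had 41.6, 36.8 and 45.2 CPM in FAP replicates 1, 2 and 3, against 39.8, 42.1 and 49.1 CPM in control replicates 1, 2 and 3. Its values overlapped between groups (log2 fold change -0.09, SE 0.12, adjusted p = 0.843). ITGA7, a laminin receptor chain of muscle, was at -0.40 with an SE of 0.58 and under 2 CPM in every library. ITGAV, which with several beta chains binds vitronectin and latent TGF-beta, had 48.7, 44.9 and 50.8 CPM in FAP replicates 1, 2 and 3, against 35.3, 43.3 and 45.0 CPM in control replicates 1, 2 and 3. The groups overlapped narrowly at ITGAV (log2 fold change 0.21, SE 0.12, adjusted p = 0.575). ITGA4, a receptor chain for fibronectin and VCAM1, had 2.23, 0.776 and 1.41 CPM in FAP replicates 1, 2 and 3, against 1.64, 1.31 and 1.19 CPM in control replicates 1, 2 and 3 (log2 fold change 0.03, SE 0.51, adjusted p = 0.992).

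Among beta chains, ITGB1, the common partner of most alpha chains listed, had 279, 278 and 381 CPM in FAP replicates 1, 2 and 3. In control replicates 1, 2 and 3 it had 359, 278 and 361 CPM. The libraries thus fell near 278 CPM or near 359 to 381 CPM in both groups (log2 fold change -0.09, SE 0.13, adjusted p = 0.859). Without FAP replicate 3 the value was -0.26, without control replicate 2 -0.20, and neither passed. ITGB5, a partner of alpha V, had 81.7, 81.9 and 79.2 CPM in FAP replicates 1, 2 and 3, against 78.9, 91.2 and 93.2 CPM in control replicates 1, 2 and 3. Its values overlapped between groups (-0.12, SE 0.10, adjusted p = 0.731). ITGB3, the other main partner of alpha V, averaged 6.26 ± 0.357 CPM in FAP libraries and 7.07 ± 0.825 CPM in controls. ITGB8, whose product with alpha V binds latent TGF-beta, averaged 1.10 ± 0.372 CPM in FAP libraries and 0.988 ± 0.858 CPM in controls. Of the 14 tested integrin chains 11 had negative values, with a median log2 fold change of -0.10, although ITGA5 turned positive without control replicate 2 and ITGA6 without control replicate 3. Summed over the 12 alpha chains, FAP libraries held 833 to 853 CPM and controls 789 to 956 CPM, and over the 6 beta chains 368 to 467 CPM in FAP libraries and 378 to 463 CPM in controls. The sums overlapped between groups.

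Set per length of the longest GENCODE transcript, ITGA3 and ITGA5 stood about level at the top of the alpha chains, at 66.6 and 65.4 CPM per kilobase in FAP libraries and 70.2 and 69.3 in controls. ITGA6, ITGA2 and ITGAV followed at 4.55 to 7.34 CPM per kilobase in FAP libraries and 5.86 to 7.77 in controls, and ITGA11, ITGA1 and ITGA10 stood at 0.929 to 1.06 in FAP libraries and 1.06 to 1.15 in controls. ITGAV ranked above ITGA2 in FAP libraries, at 6.84 and 4.55 CPM per kilobase, while in controls they stood at 5.86 and 5.99. ITGB1 led the beta chains with 82.6 CPM per kilobase in FAP libraries and 87.9 in controls, ahead of ITGB5 with 18.5 in FAP libraries and 20.1 in controls. Where a protocol reads mainly the 3′ ends of transcripts, division by length understates long genes. Where along the transcripts these DRUG-seq reads lay was not tested, so the order per kilobase may not be the order of transcript numbers. Chains with too few counts to test were ITGA8, with at most 7 counts in a library, ITGA9, with at most 6, the hemidesmosome chain ITGB4, with at most 12, and ITGB6, with 0 in all 6. A count of 0 allows up to 0.479 CPM in the shallowest FAP library and up to 0.548 CPM in the shallowest control, for counting error only. The span of ITGB4 overlaps GALK1 (48.1 CPM) and that of ITGA7 overlaps BLOC1S1 (54.6 CPM).

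**Figure D3:**
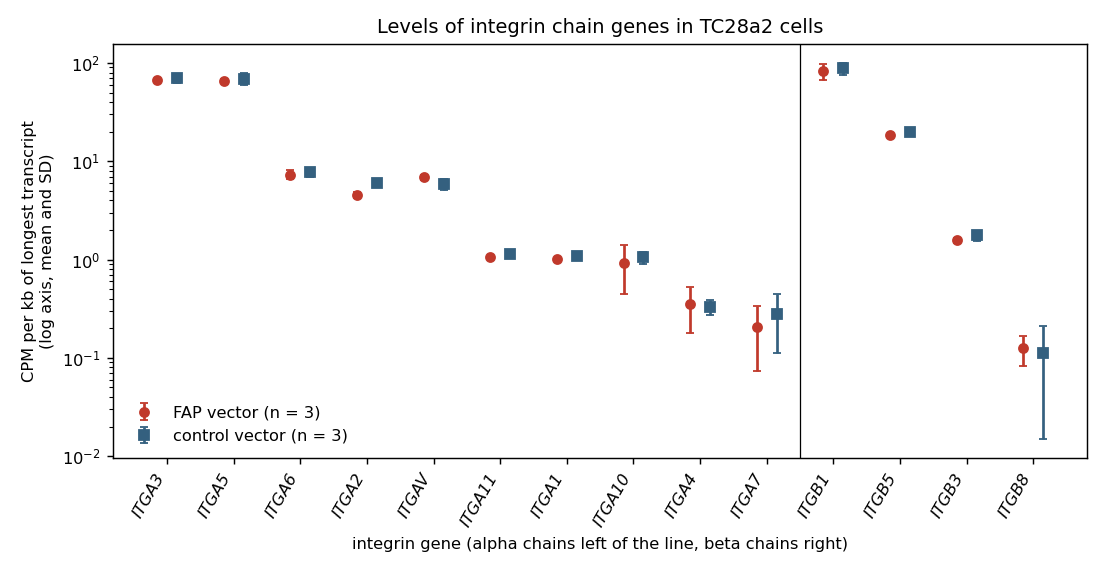
Mean CPM per kilobase of the longest transcript (log axis, SD as error bars, n = 3 per group) for the 14 tested integrin chains, FAP left of control at each gene, alpha chains left of the line and beta chains right, ordered by the control mean. ITGA3, ITGA5 and ITGB1 stand between 65.4 and 87.9, and FAP and control points lie close together at each gene.

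The talins, kindlin and the ILK complex showed no called change and small estimates. TLN1, the main talin, which couples beta tails to actin, had 157, 171 and 204 CPM in FAP replicates 1, 2 and 3, against 178, 166 and 167 CPM in control replicates 1, 2 and 3. FAP libraries lay below, among and above the controls (log2 fold change 0.06, SE 0.11, adjusted p = 0.889), and without FAP replicate 3 the value turned to -0.05. FERMT2, kindlin-2, the partner of talin in integrin activation, had 87.9, 103 and 90.1 CPM in FAP libraries and 102, 96.8 and 92.8 CPM in controls (-0.05, adjusted p = 0.915). TLN2 was at -0.09 (SE 0.16). ILK, the pseudokinase at the centre of its complex, had 106, 103 and 118 CPM in FAP libraries and 104, 119 and 101 CPM in controls, fully overlapping (0.01, adjusted p = 0.982). LIMS1, which encodes PINCH1, had 92.7, 91.2 and 86.8 CPM in FAP libraries and 98.4, 68.2 and 83.7 CPM in controls (0.12, adjusted p = 0.780), and PARVA, alpha-parvin, was at -0.11 (adjusted p = 0.814). For these 6 genes each 95% interval of the log2 fold change included 0. The related genes LIMS3 and LIMS4 held nearly equal counts, 85 and 91 in FAP replicate 1 and 37 and 37 in control replicate 1, and how reads shared between such copies were assigned is unknown here. ILK overlaps TAF10 (44.0 CPM).

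The 4 proteins that tie the plaque to actin all had positive values, except ZYX without FAP replicate 3 and TNS1 with thinned counts, and none was called. TNS3, tensin-3 (chromosome 7, 47275154 to 47582586), had 26.0, 27.4 and 33.6 CPM in FAP replicates 1, 2 and 3. In control replicates 1, 2 and 3 it had 21.6, 23.3 and 24.6 CPM. Each FAP library was above each control (log2 fold change 0.33, SE 0.14, adjusted p = 0.434), and without FAP replicate 3 the value was 0.20. VCL, vinculin, which binds talin under tension, had 201, 199 and 216 CPM in FAP libraries and 169, 175 and 209 CPM in controls (0.15, SE 0.10, adjusted p = 0.652). FAP replicate 3 alone exceeded the highest control at VCL. ZYX, zyxin, a LIM protein of mature adhesions, had 38.9, 56.8 and 70.0 CPM in FAP replicates 1, 2 and 3 and 49.0, 54.0 and 54.1 CPM in control replicates 1, 2 and 3 (0.09, adjusted p = 0.876), and its value turned to -0.11 without FAP replicate 3. TNS1 was at 0.16 (SE 0.18) and turned to -0.03 with counts thinned to the smallest library. VCL overlaps AP3M1 (22.0 CPM).

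**Figure D4:**
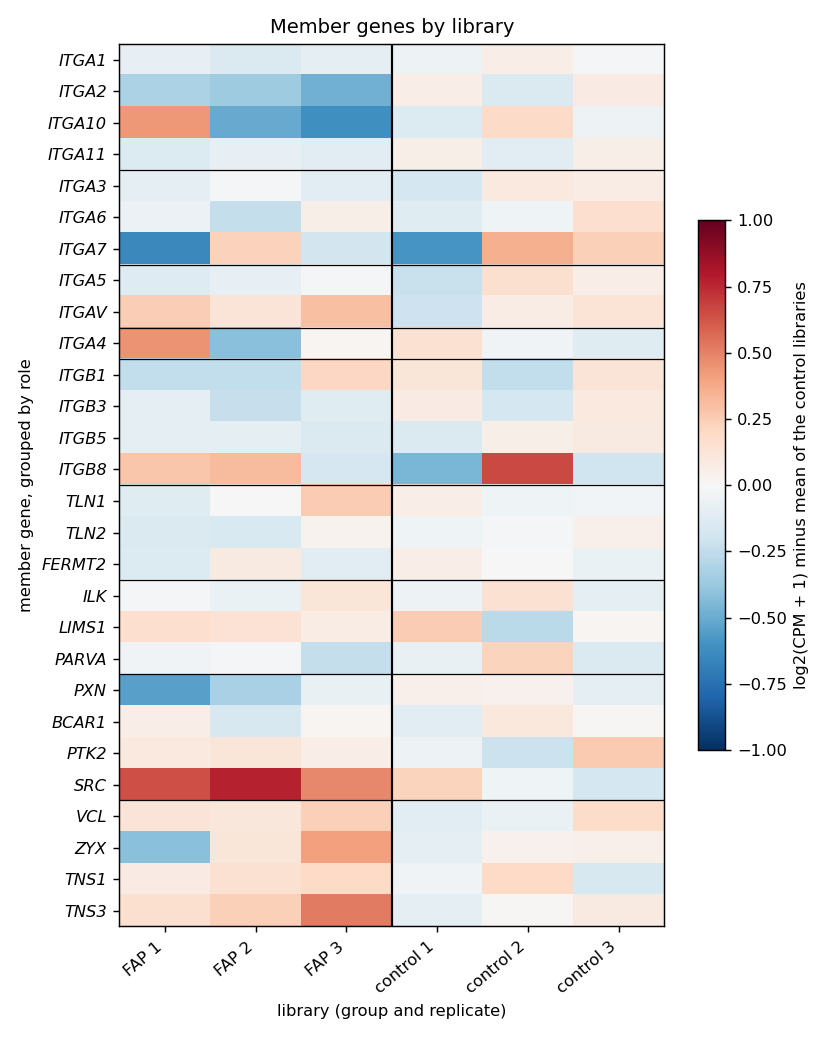
Log2(CPM + 1) of each tested member in each library minus the mean of the control libraries, as colour from -1 (blue) to 1 (red), with FAP libraries left of the line, controls right, and rows grouped by role. SRC is red in all 3 FAP libraries and ITGA2 blue, whereas ITGB1, PXN, TLN1 and ZYX differ between FAP replicate 3 and FAP replicate 1.

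Spread within the groups was of the same order for the members and for other genes. Over the 23 members of at least 10 CPM, the median coefficient of variation was 7.05% among FAP libraries and 9.33% among controls, against 9.81% and 8.38% over 8666 tested genes of that level. ZYX varied most among FAP libraries (28.2%, against 5.63% among controls), followed by ITGB1 (18.9%, against 14.3%) and PXN (16.3%, against 5.79%). FAP replicate 3, which had the most FAP (351 CPM, against 223 and 225 in replicates 1 and 2), was above both other FAP libraries at 12 of the 23 members (52.2%, against 38.9% of genes of that level) and below both at 7 (30.4%, against 37.8%). ZYX, ITGB1, PXN, TNS3 and TLN1 were higher there than the mean of FAP replicates 1 and 2 by 0.55, 0.45, 0.36, 0.33 and 0.31 on the log2 scale, whereas SRC was at -0.25. The part of this library's difference in these results was not tested beyond leaving it out.

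**Figure D5:**
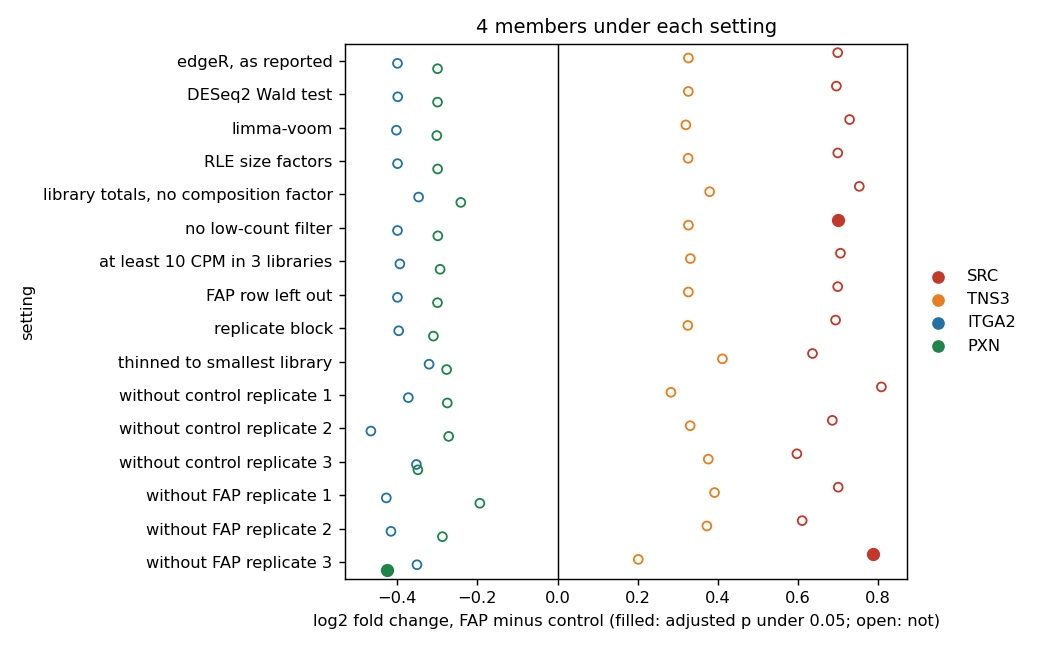
Log2 fold change of FAP minus control for SRC, TNS3, ITGA2 and PXN (x axis) under the reported fit and each alternative setting (rows), with filled points where the adjusted p was under 0.05. SRC is filled in 2 rows and PXN in 1, TNS3 and ITGA2 in none, and no point crosses 0.

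Genes around the members gave 2 calls. These lists were chosen with earlier results of these data known, so the calls are given as values only. Of 26 partners and signalling genes of integrins, all tested, 0 were called higher and 1 lower, against 0.0972% and 0.127% of all tested genes. The 1 called was PLAUR, the urokinase receptor, which binds integrins at the cell surface. PLAUR had 78.8, 81.4 and 80.6 CPM in FAP libraries and 117, 110 and 121 CPM in controls (log2 fold change -0.53, SE 0.10, adjusted p = 0.0264). The groups lay well apart, but the call was lost with library totals in place of TMM (adjusted p = 0.0636) and without FAP replicate 2 or any 1 control, with adjusted p-values from 0.128 to 0.232. CAV1, caveolin-1, averaged 397 ± 39.4 CPM in FAP libraries and 321 ± 41.4 CPM in controls (log2 fold change 0.30, SE 0.11, adjusted p = 0.358). RHOA, the GTPase of stress fibres, averaged 482 ± 57.4 CPM in FAP libraries and 583 ± 19.3 CPM in controls (-0.27, SE 0.11, adjusted p = 0.391). Without FAP replicate 3 both passed (adjusted p = 0.0286 for CAV1 and 0.0288 for RHOA), where 1.86% of all tested genes were called. The list's median was -0.00, and 4 of the 26 stood at an unadjusted p under 0.05 (15.4%, against 9.91% of all tested genes).

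Of 33 integrin ligands 29 were tested, with a median log2 fold change of 0.15. At an unadjusted p under 0.05 stood 7 (24.1%, against 9.91% of all tested genes). Of the 29, 1 was called higher and 0 lower, against 0.0972% and 0.127% of all tested genes. The call was COL6A2, a chain of collagen VI, with 265, 239 and 183 CPM in FAP libraries and 128, 127 and 160 CPM in controls (0.72, SE 0.13, adjusted p = 0.0167). It was lost without FAP replicate 2 or any 1 control (adjusted p from 0.0588 to 0.268). The other collagen VI chains of the list, COL6A1 and COL6A3, were at -0.03 (adjusted p = 0.951) and -0.08 (adjusted p = 0.820). TGFB1, whose latent form alpha V integrins bind, averaged 145 ± 24.7 CPM in FAP libraries and 101 ± 15.5 CPM in controls (0.52, SE 0.13, adjusted p = 0.116). CCN2, a matricellular ligand, averaged 87.5 ± 12.0 CPM in FAP libraries and 115 ± 10.1 CPM in controls (-0.39, SE 0.11, adjusted p = 0.216). Without FAP replicate 3, CCN2 passed (adjusted p = 0.0134), where 1.86% of all tested genes were called. TGFB1 passed under 5 of the alternatives, DESeq2 and the fit with the replicate block among them (adjusted p = 0.0292 and 0.0289). Those 2 fits called 0.463% and 0.329% of their genes.

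Of 44 other plaque proteins 41 were tested. By edgeR, DESeq2 and limma-voom 0 were called, against 0.224%, 0.463% and 0.157% of all genes each fitted. At an unadjusted p under 0.05 stood 6 (14.6%, against 9.91% of all tested genes), and the median log2 fold change was 0.08. The smallest p-values belonged to TNS2, TES and TRIP6. TNS2, a further tensin, averaged 21.0 ± 5.49 CPM in FAP libraries and 14.6 ± 2.20 CPM in controls (0.56, SE 0.18, adjusted p = 0.294). TES, a zyxin partner, averaged 94.2 ± 9.06 CPM in FAP libraries and 78.4 ± 5.15 CPM in controls (0.26, SE 0.11, adjusted p = 0.416). TRIP6, a zyxin relative, averaged 137 ± 9.96 CPM in FAP libraries and 160 ± 4.07 CPM in controls (-0.22, SE 0.10, adjusted p = 0.452). Of 8 integrin chains known mainly from leukocytes and platelets 3 were tested. Of these 0 stood at an unadjusted p under 0.05, against 9.91% of all tested genes. By edgeR and limma-voom 0 of these chains were called, against 0.224% and 0.157% of all tested genes. DESeq2 gave no adjusted p for ITGB2 and ITGAX, so it could not call them, and it did not call ITGAE. ITGB2 averaged 0.897 ± 0.392 CPM in FAP libraries and 1.32 ± 0.218 CPM in controls (-0.62, adjusted p = 0.738). ITGAX averaged 0.860 ± 0.362 CPM in FAP libraries and 1.01 ± 0.458 CPM in controls (-0.28, adjusted p = 0.911). ITGAE averaged 59.5 ± 11.0 CPM in FAP libraries and 60.2 ± 4.50 CPM in controls (-0.03, adjusted p = 0.960).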

How the data were processed

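The authors deposited raw read counts, whole numbers by Entrez gene ID with 1 column per sample, whose names gave group and replicate. The submitters' processing notes name HISAT2, featureCounts, Subread and GRCh38; their versions, the strand setting and the handling of multiple alignments and molecular identifiers were not given in the sources used here. Symbols and coordinates came from RefSeq (GRCh38.p14), with 27745 of 28395 IDs matched.

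Counts were fitted with edgeR 4.0.16 in R 4.3.3 (TMM, filterByExpr with a minimum count of 10 and total of 15, two-sided quasi-likelihood test, no covariate), and p-values were adjusted by Benjamini-Hochberg over all 13373 tested genes. The standard error is the absolute log2 fold change divided by the square root of F, and 95% intervals use the test's degrees of freedom. The test was tried on simulated data. The members, lists and alternatives were chosen with earlier results of these data known. Values in each library are given for members with an unadjusted p under 0.05 and for the 2 most abundant of each role, and values of each other list for called genes and the 3 with the smallest p; further values were chosen after they were seen. Alternatives were DESeq2 1.42.0, voom in limma 3.58.1, other scalings and filters, a threshold of 0.1, thinned counts, FAP left out, the replicate block and each library left out. Mitochondrial genes had 0 counts in the table, so they gave no measure of RNA quality. Figures used matplotlib 3.10.9.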

Additional observations from a re-analysis of the deposited data

How the results depend on the processing

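Of 413 values of the 28 tested members under the alternatives, 386 kept their direction and were not called. Among them are the DESeq2 values of ITGA4, ITGA7, ITGA10, ITGB3 and ITGB8, which had no adjusted p and were counted as not called. Another 3 became calls (SRC 0.70 with no low-count filter and 0.79 without FAP replicate 3, PXN -0.43 without FAP replicate 3). The other 24 turned in sign, at 14 members with estimates near 0. Members called higher numbered 1 with no low-count filter and 0 to 1 without each library, and called lower 0 to 1 without each library. Genes called over all tested numbered 30 as reported, 98 by DESeq2, 19 with library totals (13 higher and 6 lower, against 13 and 17 as reported) and 152 with no low-count filter. They numbered 38, 6 and 248 without FAP replicates 1, 2 and 3, and 4, 7 and 3 without control replicates 1, 2 and 3. The median of the members was -0.0078 with library totals, against 0.0568 over all tested genes there. As reported these medians were -0.0621 and 0.0031. Without each library the median of the members was -0.0854 to -0.0133.

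With library totals, FERMT2, BCAR1 and ITGAE turned from -0.0455, -0.0257 and -0.0302 to 0.0102, 0.0277 and 0.0223. The median over all tested genes moved likewise, from 0.0031 to 0.0568. With thinned counts TLN2 and TNS1 turned to 0.0381 and -0.0299, and ITGA4 turned to -0.12 in limma-voom and -0.0074 with the replicate block. Without each library, values ranged from -0.17 to 0.0065 (ITGA6), -0.19 to 0.0021 (ITGA5), -0.30 to 0.38 (ITGA4), -0.24 to 1.00 (ITGB8), -0.0517 to 0.14 (TLN1), -0.0488 to 0.10 (ILK), -0.0026 to 0.24 (LIMS1), -0.19 to 0.0239 (PARVA), -0.0795 to 0.0384 (BCAR1), -0.0304 to 0.24 (PTK2), -0.11 to 0.27 (ZYX) and -0.17 to 0.0656 (ITGAE). The causes were not tested.

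Medians of the other lists were 0.14 (plaque proteins) and 0.0498 (partners) with library totals, where that over all tested genes was 0.0568. The median of the other integrin chains was -0.024 with the 10 CPM filter and -0.0148 with thinned counts. Without each library the list medians ranged from 0.0409 to 0.0868 (plaque proteins), from -0.57 to -0.0683 (other integrin chains), from -0.02 to 0.01 (partners) and from 0.0453 to 0.19 (ligands).

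With the replicate block 44 genes and 0 members were called. Same-numbered samples did not deviate together (correlations -0.004, 0.02 and -0.004), so the numbers were not read as pairs. Standard errors were largest in the 5 tested members under 10 CPM, up to 0.60 on the log2 scale. The part of depth in these errors was not tested.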
